A study of Arabidopsis thaliana with 6 samples.

Results

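CHX genes encode cation/H+ exchangers, integral membrane proteins of the plant cation-proton antiporter superfamily. Transcripts of the named members were followed from dry pollen to growing pollen tubes of Arabidopsis thaliana. On the ATH1 array, a single-colour Affymetrix format that reads each transcript with a set of short oligonucleotide probes, 7 probe sets were annotated to 1 gene whose symbol is CHX and a number. Of these 7, the probe sets of CHX6B, CHX15, CHX19, CHX21 and CHX28 exceeded the 60th percentile of the array on 2 or more arrays, and these 5 are described in full. CHX16 and CHX20 did not reach that limit on any array. They are 7 of 22810 probe sets on the array, and the 5 are among 11412 that passed the same limit and were tested. RefSeq's gene table for assembly TAIR10.1 lists 28 CHX genes, and the other 21 were not analysed here.

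All samples were pollen of the Columbia ecotype from plants 50 days old, in 3 stages with 2 arrays each. Desiccated mature pollen was drawn from open flowers with a vacuum device. Hydrated pollen was vortexed off the flowers into liquid medium, pelleted, and left as a thin film at 25 °C for 45 min. Growing tubes were prepared in the same way, kept for 4 h until they averaged 150 µm, and held back on a 50 µm mesh that let ungerminated grains pass. The medium held 1 mM KCl, 5 mM CaCl2 and 15% sucrose at pH 5.8. Stated germination rates were 70 to 75%, and the labels name no sieving step for hydrated pollen. Replicates are called biological in the design text, and nothing states whether arrays with the same number shared plants or days.

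CHX proteins move potassium and other monovalent cations against protons, and with them adjust the ion content and pH of the cell and its internal compartments. Many members of this plant family are known for expression in pollen, where hydration and tip growth demand large fluxes of potassium, water and protons. CHX21 and its close relative CHX23 are known to act redundantly when the pollen tube turns toward an ovule. CHX19 belongs by sequence with CHX16, CHX17 and CHX18, of which CHX17 is known for potassium and pH homeostasis in endomembranes. CHX20 is known from guard cells, where it serves osmotic regulation of stomatal opening.

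The values are MAS5-type signal in arbitrary units, scaled on each array to a common mean near 100. As the background limit served the 60th percentile of each array, which was 19.7 to 34.1, and array medians lay between 14 and 24.3. Defining pollen genes were bright on every array: the 8 pollen markers that were named, out of 13 listed, read between 173.2 and 42491.4. They summed to between 59883.8 and 72127.4 in tubes, against 85598.7 to 88088.1 in hydrated pollen and 84222.9 to 101380.3 in mature pollen. In tubes against mature pollen AGL18, AGL66 and AGL29 passed the test described below as lower, at -2.29, -1.90 and -1.82 log2 units. The others did not pass, and ANX1 alone was positive, at 0.905. The sperm histone MGH3, the 1 named of 5 sperm genes, read 1362.3 and 886.1 in tubes. It read 2343.1 and 1316.2 in hydrated pollen, which overlaps tubes, and 2442.5 and 1430.7 in mature pollen. MGH3 did not pass in tubes against hydrated pollen (adjusted p = 0.504, limma) or mature pollen (adjusted p = 0.346, limma). Of 31 markers listed for green tissue, floral organs, tapetum and epidermis, 5 were named, and the highest reading of any was 50.8. Their summed signal was 51.7 to 167.7 in tubes, 76.1 to 98.9 in hydrated pollen and 73.4 to 97.2 in mature pollen, ranges that overlap. Of the 5, 4 exceeded the background limit on some array. The floral marker SPT did so on the 2 tube arrays alone, at 50.8 and 25.6. SWEET9, also floral, did so on 4 arrays, RCA on 2 and SHT on 1. The part of other tissues in the results below was not tested. Levels are signals and changes are log2 differences ± SE. Limma's moderated test gave the p-values, adjusted by the Benjamini-Hochberg method over all 11412 tested probe sets. A change was called at an adjusted p under 0.05. In bulk samples such as these, fewer cells with a transcript and less of it per cell cannot be told apart.

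Among the 5 tested CHX transcripts, CHX19 and CHX21 rose in growing tubes. CHX6B and CHX28 passed no test, and CHX15 passed only in a fit blocked on the replicate number. CHX21 entered the selection through its tube arrays alone, so the test of its rise is not separate from its selection. Its rise is left out of the tube counts in this paragraph. The other 4 exceeded the limit of background on all 6 arrays. In tubes against hydrated pollen 1 of these 4, CHX19, rose, where 2.54% of all tested probe sets were called higher, and 0 fell, where 2.03% were called lower. In tubes against mature pollen CHX19 again was the 1 of 4 to rise, where 4.61% of all tested probe sets were called higher, and 0 fell, where 3.29% were called lower. In hydrated against mature pollen 0 of these 4 passed in limma, where 0.578% of all tested probe sets were called. None of the 4 had an unadjusted p under 0.05, where 705 of the 11412 tested probe sets did. CHX21 is left out here too, since it lay under background on all 4 arrays compared.

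**Figure D1:**
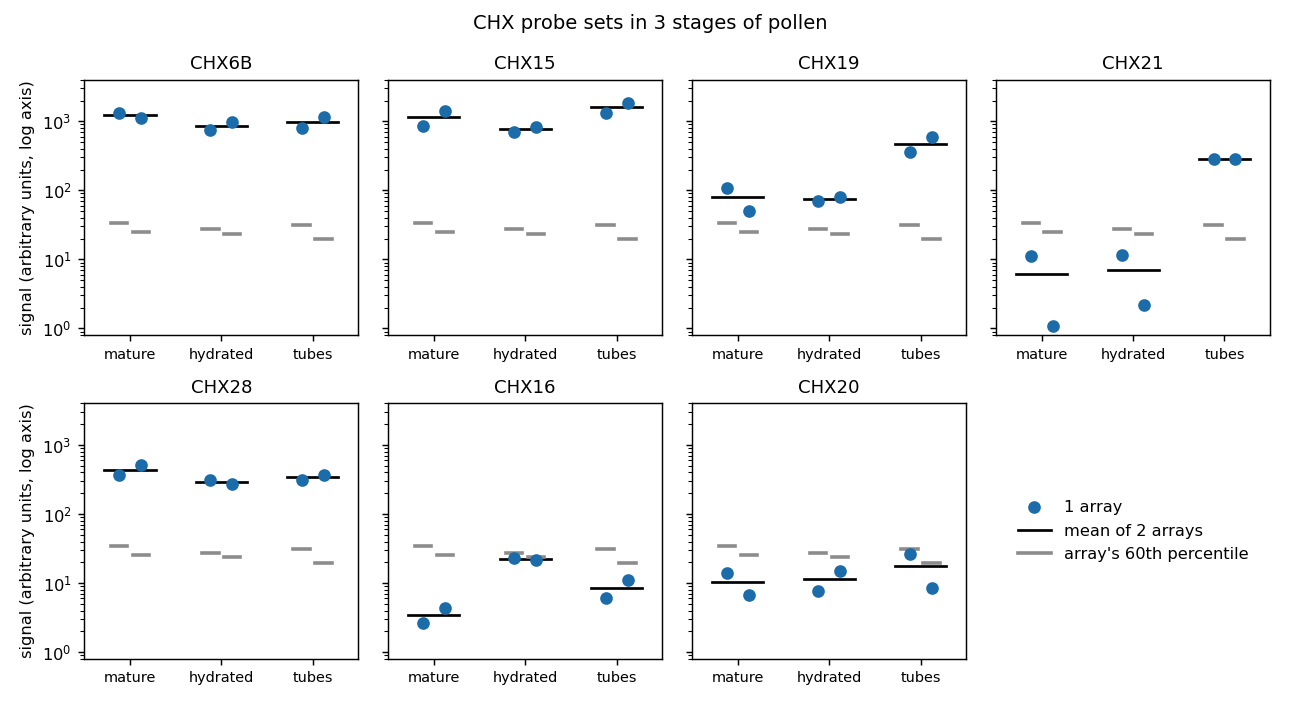
Signal of the 7 CHX probe sets on each of the 6 arrays, on a log axis in arbitrary units, by stage. Points are arrays, black bars are means of 2 arrays and grey bars are each array's 60th percentile. CHX21 lies below the grey bars in mature and hydrated pollen and reads 285.2 and 285.1 in tubes, and CHX19 reads 356 and 595.7 in tubes.

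CHX21 (AT2G31910) read below the background limit in both pollen stages and above it in tubes. Its signal was 11.1 and 1.1 in mature pollen, 11.7 and 2.2 in hydrated pollen, and 285.2 and 285.1 in tubes. Both tube arrays stood far above all 4 pollen arrays, and the arrays of mature and hydrated pollen overlapped. The readings in mature and hydrated pollen lie under the limit of background, so they have no order and the rise has only a lower bound. With each dim array taken at its own 60th percentile, which was above the gene's reading on all 4, tubes were at least 11.2-fold higher than hydrated pollen and at least 9.75-fold higher than mature pollen, from means of log2 values. A stricter limit, with all readings below 34.1, the highest of the 6 percentiles, set to that value, lowered both bounds to 3.06 on the log2 scale. The test was run on the readings themselves and gave 5.81 ± 1.34 against hydrated pollen (adjusted p = 0.0349, limma) and 6.35 ± 1.34 against mature pollen (adjusted p = 0.015, limma). These 2 fitted differences rest on readings under background and move with how these are treated. With the stricter limit CHX21 was called in both comparisons. That limit gives the 4 pollen arrays the same value, and the 2 tube arrays read nearly alike. Almost no spread is then left by construction, so this call adds nothing to the rise.

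The call for CHX21 was lost in some fits without 1 array, which leave 1 array in a stage and fewer degrees of freedom. Against hydrated pollen it was lost without tube array 1 (adjusted p = 0.353, limma), tube array 2 (0.358), hydrated array 1 (0.0513) or hydrated array 2 (0.17). Against mature pollen it was lost without tube array 1 (0.215) or tube array 2 (0.242). The fitted difference was between 4.61 and 7.02 against hydrated pollen and between 4.68 and 8.02 against mature pollen in these and the other fits without 1 array. Without either tube array it stayed at 5.81 and 6.35. Limma without the intensity trend gave an adjusted p of 0.176 against hydrated and 0.0938 against mature pollen. Between hydrated and mature pollen the readings differed by less than between replicates, which were 2.41 log2 units apart in hydrated pollen and 3.34 apart in mature pollen. CHX21 passed the limit of background on exactly 2 arrays, the fewest the selection allows, and those are the 2 tube arrays.

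CHX19 (AT3G17630) was low but above background in both pollen stages and rose in tubes. Its signal was 108.2 and 50.6 in mature pollen, 70.5 and 80.5 in hydrated pollen, and 356 and 595.7 in tubes. Both tube arrays exceeded all 4 pollen arrays, while the hydrated values lay between the mature ones. Of all tested probe sets, 20% lay higher on both tube arrays than on both hydrated arrays, and 20.8% higher than on both mature arrays. Means were 475.85 ± 169.5 in tubes, against 75.5 ± 7.07 in hydrated pollen and 79.4 ± 40.73 in mature pollen (SD, n = 2 arrays each). Tubes were 6.11-fold higher than hydrated pollen, a log2 difference of 2.61 ± 0.48 with a 95% interval of 1.55 to 3.67 (adjusted p = 0.0111, limma). They were 6.22-fold higher than mature pollen, at 2.64 ± 0.48 with an interval of 1.58 to 3.70 (adjusted p = 0.00654, limma). Compared within a replicate number, tubes exceeded hydrated pollen by 2.34 in number 1 and 2.89 in number 2, and mature pollen by 1.72 and 3.56. With both tube arrays above all 4 pollen arrays, these differences are positive however the arrays are paired, so their shared direction adds nothing. The size against mature pollen differed between the numbers.

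No change of CHX19 passed the test at hydration. The log2 difference of hydrated from mature pollen was 0.03 ± 0.48, with an interval of -1.03 to 1.09 (adjusted p = 0.997, limma). The difference was -0.62 in number 1 and 0.67 in number 2, and it turned to -0.09 after quantile normalization. The tube call against hydrated pollen was lost without tube array 1 (adjusted p = 0.0738, limma), tube array 2 (0.145), hydrated array 1 (0.0806) or hydrated array 2 (0.0711). Against mature pollen it was lost without tube array 2 (0.1) and held without any other single array. Without the intensity trend the adjusted p was 0.162 against hydrated and 0.0959 against mature pollen, and with readings below 34.1 set to that value it was 0.0994 and 0.0705. The difference stayed between 2.09 and 3.19 in all of these fits.

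**Figure D2:**
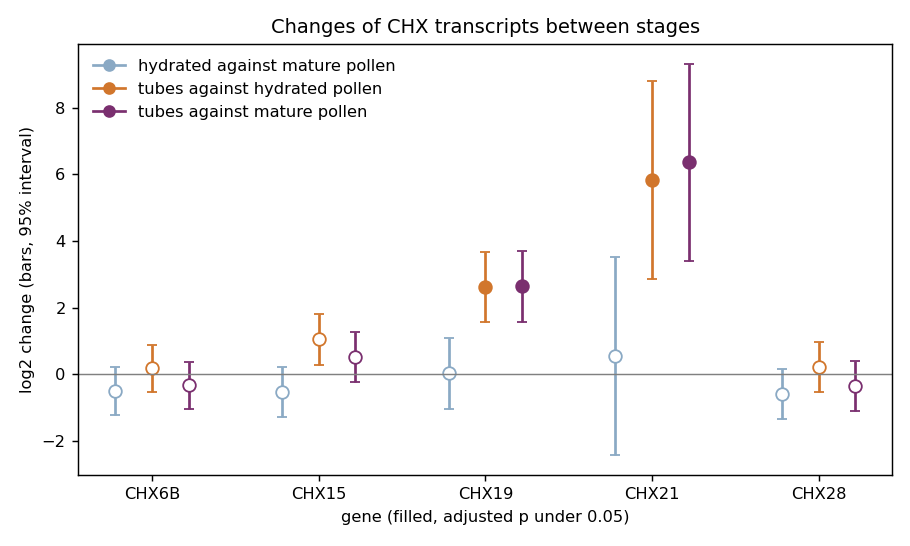
Log2 change of each tested CHX transcript in 3 comparisons, with 95% intervals from limma, and filled points where the adjusted p is under 0.05. The 4 filled points are CHX19 and CHX21 in tubes against hydrated and against mature pollen, at 2.61, 2.64, 5.81 and 6.35, and the values of CHX21 use readings under background.

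CHX15 (AT2G13620) was well above background at every stage and had its highest mean in tubes, and its call depended on the replicate block. Its signal was 862.8 and 1419.6 in mature pollen, 711.5 and 824.8 in hydrated pollen, and 1339.5 and 1854.7 in tubes. Both tube arrays exceeded both hydrated arrays, and the tube arrays overlapped those of mature pollen. Tubes were 2.06-fold above hydrated pollen, a log2 difference of 1.04 ± 0.34 with an interval of 0.29 to 1.79 before adjustment over all probe sets (adjusted p = 0.139, limma). The differences within a number were 0.91 and 1.17, and a fit blocked on that number called the same difference of 1.04 (adjusted p = 0.000605, limma). Against mature pollen the difference was 0.51 ± 0.34 (adjusted p = 0.487, limma). Hydrated pollen read lower than mature pollen on both arrays, by -0.53 ± 0.34 (adjusted p = 0.903, limma).

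CHX6B (AT1G08135), which the reference table places next to CHX6A, was bright at all stages with small differences between them. Its signal was 1317.7 and 1130.5 in mature pollen, 747.6 and 986.8 in hydrated pollen, and 803 and 1167.2 in tubes. The tube arrays overlapped those of both other stages. Tubes differed from hydrated pollen by 0.17 ± 0.32 on the log2 scale, with an interval of -0.54 to 0.88 (adjusted p = 0.898, limma), and this sign turned when hydrated array 1 (-0.03) or tube array 2 (-0.10) was left out. From mature pollen tubes differed by -0.33 ± 0.32 with an interval of -1.04 to 0.38 (adjusted p = 0.662, limma). Both hydrated arrays lay below both mature arrays, at -0.51 ± 0.32 (adjusted p = 0.903, limma).

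CHX28 (AT3G52080) was likewise well above background at the 3 stages and passed no test. It read 366.2 and 514.9 in mature pollen, 312.5 and 268.2 in hydrated pollen, and 308.4 and 368.2 in tubes. Tubes overlapped both other stages, and hydrated pollen lay below mature pollen on both arrays. The difference was 0.22 ± 0.34 in tubes against hydrated pollen (adjusted p = 0.867, limma), with an interval of -0.53 to 0.97. It was -0.37 ± 0.34 in tubes against mature pollen (adjusted p = 0.648, limma) and -0.58 ± 0.34 in hydrated against mature pollen (adjusted p = 0.886, limma), with an interval of -1.34 to 0.17.

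The 5 transcripts thus had different orders of level across the stages. CHX19 and CHX21 were highest in tubes, and their mature and hydrated arrays overlapped. CHX15 had the order tubes, mature, hydrated, in which tubes and mature pollen overlapped. CHX6B and CHX28 had the order mature, tubes, hydrated, in which tubes overlapped each of the other stages. At hydration, CHX6B, CHX15 and CHX28 lay lower on both hydrated arrays than on both mature arrays, 3 of the 4 members above background throughout, where 18% of all tested probe sets did so, and none of the 3 passed the test. Mature pollen was collected dry and hydrated pollen in medium, so at this step hydration and handling cannot be told apart. Tubes were kept in medium longer than hydrated pollen and were held back on a mesh, a step not named for the other stages. Tubes and mature pollen also differed in wet or dry collection. In both tube comparisons, tube growth therefore cannot be told apart from time in medium and handling, for CHX19 and CHX21 as well. The median log2 change of the 4 members above background throughout was 0.63 in tubes against hydrated pollen, beside -0.06 over all tested probe sets. Tubes against mature pollen gave 0.09 beside -0.12, and the value was -0.52 beside -0.02 in hydrated against mature pollen. Both comparisons that involve tubes share the tube arrays, and both that involve hydrated pollen share the hydrated arrays, so the comparisons are not separate evidence.

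**Figure D3:**
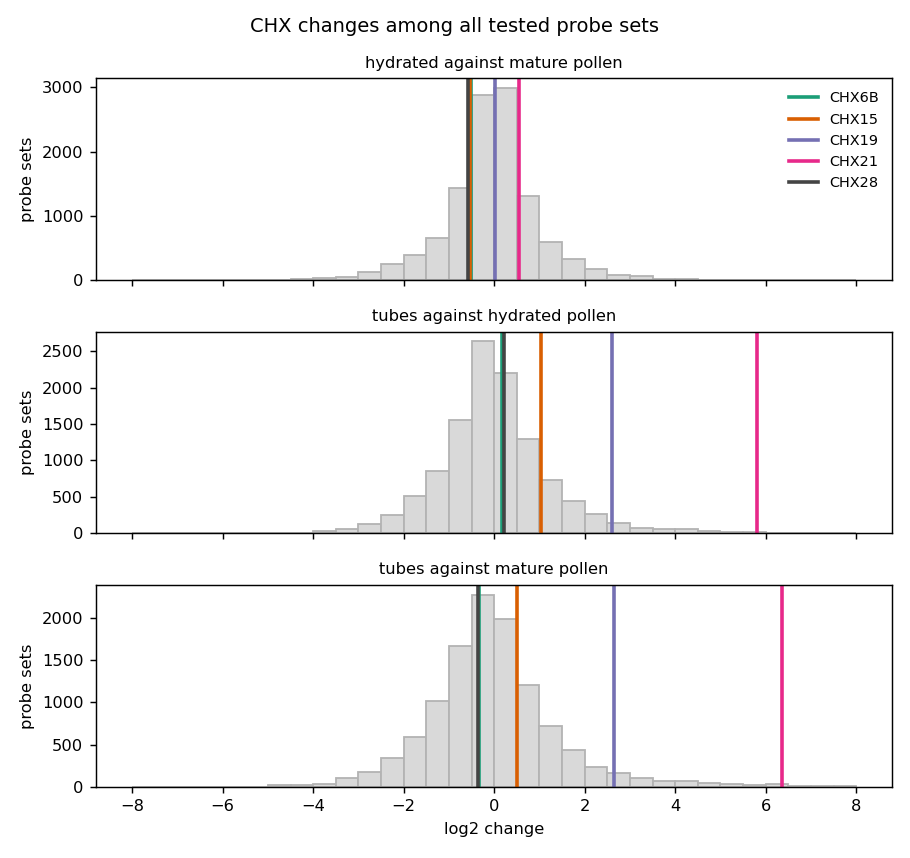
Number of tested probe sets by log2 change in each of the 3 comparisons (grey bars, 0.5 log2 units wide), with the fitted changes of the 5 CHX transcripts as coloured lines. CHX19 lies at 2.61 in tubes against hydrated pollen and the 5 lie between -0.58 and 0.54 at hydration, while the position of CHX21 rests on readings under background.

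The likeness of the 4 patterns above background throughout is given as Pearson coefficients of log2 signal over the same 6 arrays, as a description, since arrays of a stage share that stage. CHX15 and CHX19 had a coefficient of 0.65, the highest of the 6 pairs. CHX6B and CHX28 had 0.53, CHX15 had 0.51 with CHX28 and 0.32 with CHX6B, and CHX19 had 0.03 with CHX6B and -0.20 with CHX28. None of the 5 tested CHX genes is next to another of them in the reference table, in which CHX6A beside CHX6B is the 1 CHX neighbour of any of the 7.

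CHX16 and CHX20 did not exceed the limit of background on any array, with readings between 2.6 and 26.5. CHX16 (AT1G64170), the sequence relative of CHX19, read 2.6 and 4.4 in mature pollen, 22.8 and 21.9 in hydrated pollen, and 6 and 11.2 in tubes. The hydrated readings came closest to the limit, which was 27.5 and 23.5 on those arrays. CHX20 (AT3G53720), the guard cell exchanger, read 14.2 and 6.7 in mature pollen, 7.8 and 14.9 in hydrated pollen, and 26.5 and 8.6 in tubes. These readings have no order, and neither gene was tested.

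Beside the CHX genes, other genes for cation and proton transport were listed by symbol, 197 genes in all, of which 17 were named on the array and 12 tested. None of the named probe sets belonged to the NHX and KEA antiporters, the potassium channels, the potassium uptake carriers, or the calcium pumps and exchangers, so these groups were not analysed here. Of the 12 tested, 1 rose in tubes against both hydrated and mature pollen, where 2.54% and 4.61% of all tested probe sets were called higher. In these comparisons 0 of the 12 fell, where 2.03% and 3.29% were called lower. The other 11 did not pass in either comparison without the replicate block. In hydrated against mature pollen 0 of 12 passed in limma, where 0.578% of all tested probe sets were called. Of the 12, 0 had an unadjusted p under 0.05, where 705 of the 11412 tested probe sets did. The median log2 change of tubes for the 12 was 0.46 against hydrated and 0.18 against mature pollen, beside the -0.06 and -0.12 of all tested probe sets, and 1 of the 12, GLR1.4, passed the filter through its tube arrays alone.

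The gene that rose was AT3G58730, which encodes subunit D of the vacuolar-type H+-ATPase. This pump acidifies the vacuole and the secretory pathway and so supplies the proton gradient that cation/H+ exchangers of those membranes use. Its signal was 226.1 and 308.7 in mature pollen, 325.5 and 434.9 in hydrated pollen, and 1170.3 and 1233.8 in tubes. Both tube arrays exceeded all 4 pollen arrays, by 1.68 ± 0.33 on the log2 scale against hydrated pollen (adjusted p = 0.0159, limma) and by 2.19 ± 0.33 against mature pollen (adjusted p = 0.00198, limma). Against hydrated pollen the call was lost without the intensity trend (adjusted p = 0.203, limma) and with readings below 34.1 set to that value (0.057). The rise over hydrated pollen was lost without hydrated array 1 (adjusted p = 0.144, limma), hydrated array 2 (0.0659), tube array 1 (0.139) or tube array 2 (0.133), and when scaled to a shared 75th percentile (0.105). The rise over mature pollen held without any single array, with adjusted p-values up to 0.0329, and was lost without the intensity trend (0.0774).

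Other tested proton pump genes belong to the same pump. VHA-A3, a tonoplast form of its membrane subunit a, read 1481.8 and 2718.1 in mature pollen, 1949 and 3237.4 in hydrated pollen, and 1763.4 and 2965.1 in tubes, with overlap throughout. Its change was -0.14 ± 0.41 in tubes against hydrated pollen (adjusted p = 0.946, limma). AT4G02620, subunit F, read 2592.2 and 1093.5 in tubes, against 3836.3 and 1800.7 in hydrated pollen (-0.64 ± 0.48, adjusted p = 0.642, and 0.0231 with the replicate block, limma). VHA-A1, the form of subunit a found in the trans-Golgi network, and VHA-A2, the other tonoplast form, stayed near background, with readings between 2.2 and 59.9. Subunit D was thus the 1 of 5 named pump genes to pass without the block, and whether its change differs from theirs was not tested.

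In the remaining lists the signals were mostly near background. All 4 tested glutamate receptor-like channels, a family of calcium-permeable channels, read below 50. The brightest of them, ATGLR1.2, known for calcium influx in pollen tubes, read 46.4 and 28.3 in tubes, against 27.7 and 21.9 in hydrated pollen (0.56 ± 0.71, adjusted p = 0.83, limma). NRAMP5, of the divalent metal transporter family, was the bright one among the other cation carriers. It read 1245.8 and 1534.5 in tubes, against 1716.6 and 2071.9 in hydrated pollen (-0.45 ± 0.29, adjusted p = 0.564, limma) and 2117.7 and 2247.1 in mature pollen (-0.66 ± 0.29, adjusted p = 0.246, and 0.0115 with the replicate block, limma). Both tube arrays lay below the arrays of the other stages.

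**Figure D4:**
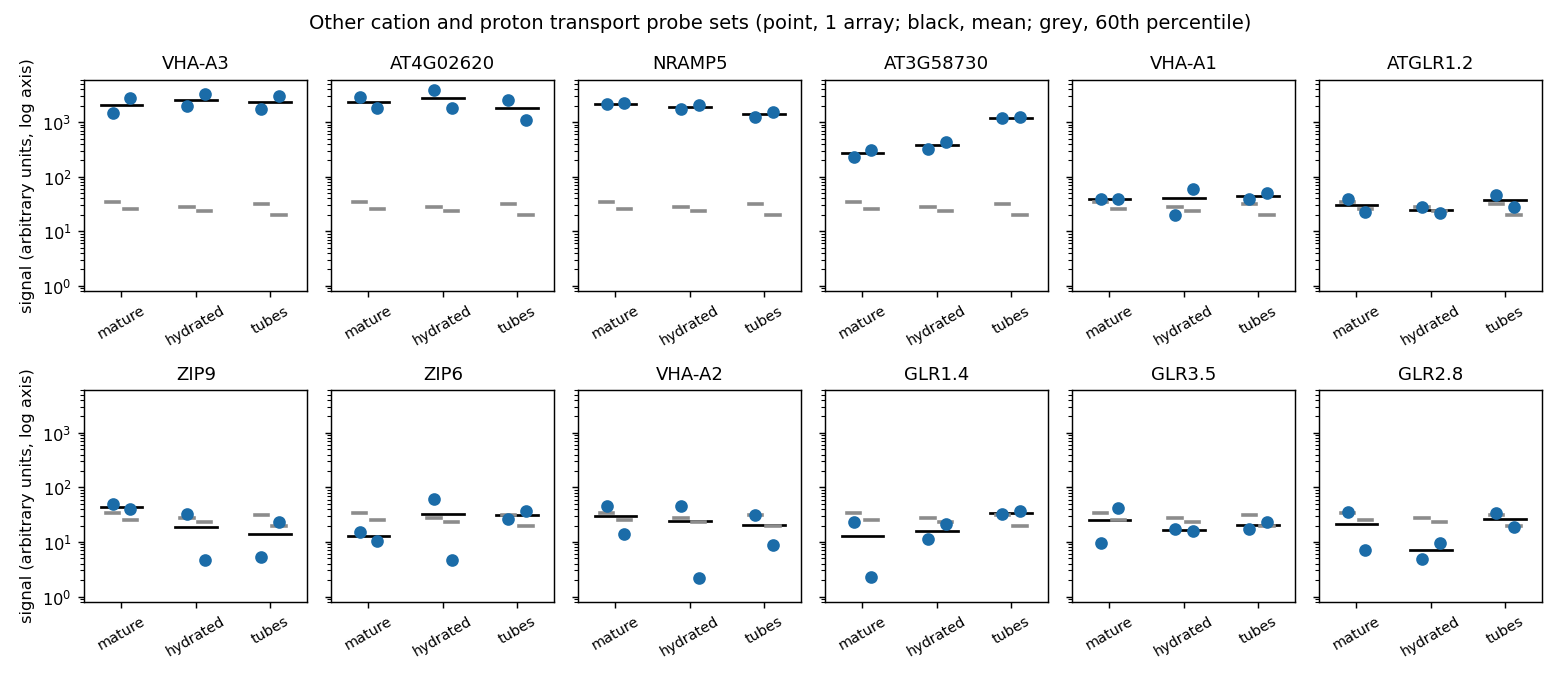
Signal of the 12 other tested cation and proton transport probe sets on each array, on a log axis in arbitrary units, ordered by mean signal. Points are arrays, black bars means of 2 arrays and grey bars each array's 60th percentile. AT3G58730 reads 1170.3 and 1233.8 in tubes, and the 8 with the lowest means stay near the grey bars.

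The named genes most like each CHX transcript were sought among the 6511 tested probe sets with 1 gene, as the 3 with the highest Pearson coefficient over the 6 arrays. For CHX21, whose coefficients rest in part on 4 readings under background, these were AT4G12790 (0.9953), AT1G70780 (0.9931) and AT3G55940 (0.9912). At the mature, hydrated and tube stages AT4G12790 averaged 80.9, 105.3 and 420, so unlike CHX21 it was above background before tube growth. For CHX19 they were AT1G73066 (0.9915), AT4G13190 (0.9912) and AT5G24810 (0.9905). At the same stages AT4G13190 averaged 120, 127.9 and 853.05, while AT5G24810 averaged 804.2, 788 and 1020.4. A high coefficient therefore does not mean a change of similar size. For CHX15 they were AT5G42220 (0.9722), AT3G10470 (0.9702) and AT3G27270 (0.9634), and for CHX28 AT3G46750 (0.9774), AT4G31230 (0.9660) and AT3G19230 (0.9643). The 3 for CHX6B, AT1G27480 (0.9958), AT3G62890 (0.9820) and AT2G11240 (0.9810), averaged under 50 at every stage and were near background. These coefficients are the highest among all of these candidates over 6 arrays and are given as a description.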

How the data were processed

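The deposited values are linear signal intensity, 1 per probe set and array, made with GCOS 1.0 and MAS5 per the submitters' processing notes. The authors' scaling left a mean of 100.02 to 100.03 on each array without the lowest and highest 2% of values. Further steps are not given in the sources used here, and detection calls were not used. Names came from the platform annotation and a TAIR10.1 gene table (13436 of 13513 single-gene probe sets matched); 503 probe sets had several genes and 8730 were unnamed here. The 64 controls were left out, 1 value under 0.1 was set to 0.1, and log2 was taken. Limma 3.58.1 in R 4.3.3 fitted 1 mean per stage over all 6 arrays (3 residual degrees of freedom), with an intensity trend, two-sided. It was also run on simulated data whose spread followed signal smoothly, as the trend assumes, so that run does not bear on the calls here. The number of arrays limits precision. Named genes were the CHX probe sets, called or brightest members of the transport lists, the 3 most like genes and the markers. Alternatives covered replicate block, trend, scaling, floor, pseudocount, filter and each array left out. Members and lists were chosen with earlier results of these data known.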

Additional observations from a re-analysis of the deposited data

How the results depend on the processing

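Of the 5 CHX transcripts in 3 comparisons, the tube rises of CHX19 and CHX21 kept their direction under all 15 alternatives and their call under some. Against hydrated pollen CHX19 was called under 9 of 15 and CHX21 under 10 of 15, and against mature pollen each under 12 of 15. Without the intensity trend the number of CHX transcripts called was 0 against hydrated and 0 against mature pollen, at unchanged differences (CHX19 2.61 and 2.64, CHX21 5.81 and 6.35), and over all probe sets 0 and 228 were called, with 1494 and 1885 at an unadjusted p under 0.05. A common floor at the highest 60th percentile was chosen after seeing the data. With it 1 CHX transcript, CHX21, was called in each tube comparison, and CHX19 was lost at 2.61 and 2.64. The counts of CHX transcripts in this section include CHX21, which was selected through its tube arrays. The planned floor at each array's own percentile turned CHX21 in hydrated against mature pollen to -0.20, a difference between the floors themselves, and quantile normalization turned CHX19 there to -0.089. Neither was called in any setting. Without 1 array, the number of CHX transcripts called was 0 to 2 in each tube comparison, and fewer arrays leave fewer degrees of freedom. The ranges were 2.24 to 2.98 for CHX19 and 4.61 to 7.02 for CHX21 against hydrated pollen, and 2.09 to 3.19 and 4.68 to 8.02 against mature pollen. In hydrated against mature pollen they were -0.52 to 0.57 for CHX19 and -1.13 to 2.21 for CHX21, and in tubes against hydrated pollen -0.10 to 0.44 for CHX6B.

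With the replicate number as a block, CHX15 was called in tubes against hydrated pollen (1.04, limma adjusted p = 0.000605), and no other CHX call changed. Deviations of arrays with the same number correlated at 0.174 to 0.221 between stages, a hint from the data and not part of the stated design, with 2 numbers only. Over all 11412 tested probe sets the block raised the calls to 421 from 66 in hydrated against mature pollen. It raised them to 1646 from 522 in tubes against hydrated pollen and to 2159 from 901 in tubes against mature pollen. Beside these, 2 of the 12 tested transport members were called with the block in each tube comparison. AT3G58730 was called in both, AT4G02620 against hydrated pollen and NRAMP5 against mature pollen. The transport count against hydrated pollen was 0 with a common 75th percentile, 0 with the common floor, 0 without the trend and 0 to 1 without 1 array, and against mature pollen 0 without the trend. Scaling to a common 75th percentile shifted the median change in hydrated against mature pollen by 0.106 and changed the split of calls in tubes against mature pollen to 443 higher and 198 lower, beside 526 and 375. Over all probe sets the count without 1 array was 29 to 81, 109 to 636 and 370 to 767 in the 3 comparisons, and the common floor gave 0, 346 and 686. Signal near the 60th percentile limits what can be said of CHX16, CHX20 and of CHX21 before tube growth. The cause of the changed calls was otherwise not tested.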
